A study of Bos indicus with 55 samples.

Results

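The 4 miRNA entries described here are the 5p and 3p arms of miR-21 and miR-22 (bta-miR-21-5p, bta-miR-21-3p, bta-miR-22-5p and bta-miR-22-3p, below without the bovine prefix bta), taken by name from the 1024 miRNA entries counted in extracellular vesicles (EVs), the membrane-bound particles that cells shed. The EVs were those that day 16 cattle conceptuses, each an embryo with its membranes, gave off during 6 h of culture. In vivo conceptuses (n = 6, 3 female and 3 male) followed artificial insemination, IVF conceptuses (n = 10, 7 female and 3 male) were fertilised in vitro, and nuclear transfer conceptuses (n = 12, 5 female and 7 male) carried the nucleus of another cell, whose source is not named. The 28 libraries are from different animals, and the series addresses how EV miRNA cargo bears on the response of the endometrium to the conceptus. Sample records list Bos indicus as the organism, whereas the series text has Bos taurus taurus for the conceptuses and Bos taurus indicus for the recipient cattle.

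A miRNA is cut from a hairpin whose 2 strands, or arms, are released together as a short duplex. The arm that is loaded into an Argonaute protein is kept and guides the silencing of matching mRNAs, and the other arm is mostly degraded. The ratio of the arms in a cell thus describes strand selection and strand stability together. The libraries here are of vesicles, and the ratio in the cells that shed them was not measured. miR-21 lies beside the VMP1 gene, is made by many tissues and is known for silencing PDCD4, a brake on cell growth and survival. miR-22 comes from an exon of a non-coding host gene and is known for silencing the oestrogen receptor ESR1.

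Library totals ran from 39263 to 603579 counts. The entries miR-2887 and miR-2904, whose sequences resemble ribosomal RNA, took 4.11 to 37.1% of the counts of in vivo libraries, 8.80 to 76.3% of those of IVF and 5.17 to 59.4% of those of nuclear transfer. Levels are therefore given as counts per 1e6 counts after TMM scaling (CPM; TMM is a scaling that assumes most miRNAs do not change), and arm ratios are given within a library, where no scaling is needed. Epithelial markers (miR-200 family, miR-141, miR-429 and miR-205) had counts for 6 of 6 members in each type and summed to between 4032 and 91121 CPM without TMM scaling. Embryonic markers (miR-302 cluster, miR-367 and miR-371) summed to between 24.2 and 10378, with miR-367 at 0 in in vivo and nuclear transfer libraries. Markers of other sources were also present: the liver miRNA miR-122 lay between 165 and 24095, leukocyte markers (5 of 5 with counts) between 354 and 7439, red blood cell markers (3 of 3) between 33.1 and 5323, and muscle markers between 9.94 and 17754, with miR-133b at 0 in vivo. The ranges of the 3 types overlapped for each list, and the part of such sources in the levels below was not tested.

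The arms of miR-21 were among the most unequal in the vesicles, whereas those of miR-22 were moderately unequal and of the opposite polarity. Over the 28 libraries miR-21-5p held 86340 reads and miR-21-3p 24, so that 3p made up 0.0278% of miR-21 reads (exact 95% binomial interval 0.0178 to 0.0413%), or 1 read per 3598 of 5p. miR-22-3p held 4147 reads and miR-22-5p 538, so that 5p made up 11.5% of miR-22 reads (10.6 to 12.4%), or 7.71 reads of 3p per read of 5p. The major arm was ahead in 28 of 28 libraries for both genes. These intervals cover counting error only and leave out differences between libraries, in which the miR-22-5p share ran from 2.13 to 29.0%. They also treat reads as independent, which reads amplified by PCR are not. The read ratio of 2 arms is not corrected for length or for the preference of adapter ligation.

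Of 81 miRNAs listed with both arms, 32 had at least 100 reads. Among these, 5p was the major arm in 18 and 3p in 14, and the median share of the minor arm was 3.98%. Ordered from the most unequal, miR-21 stood at rank 2. The pair above it was miR-99a, with 12588 reads of 5p and 0 of 3p (at least 4196-fold, against 3 reads over all libraries), and the pair after it was let-7a, with 275833 and 102. miR-22 stood at rank 22, between miR-2411 (11.3% minor arm) and miR-455 (13.6%). As a gene with a 3p major arm it is one of 14, and the plot of arm inequality shows the distance between miR-21 and miR-22.

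**Figure D1:**
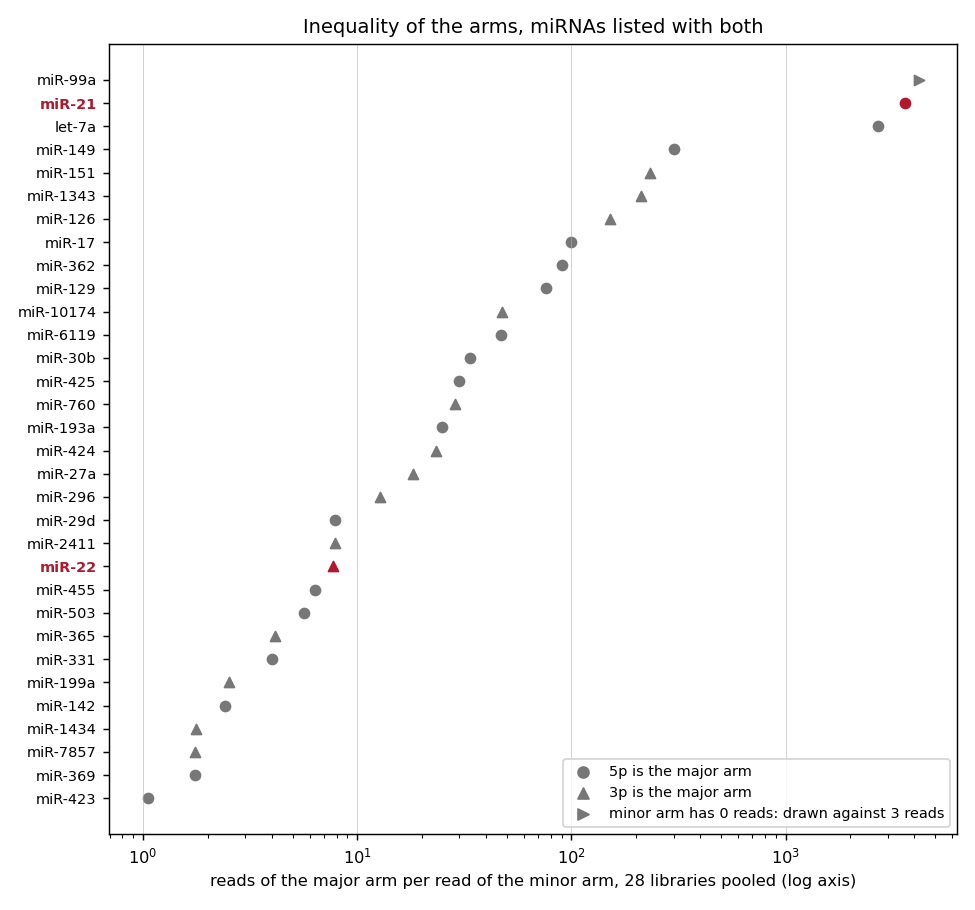
Reads of the major arm per read of the minor arm (x axis, log scale, reads pooled over 28 libraries) for the 32 miRNAs listed with both arms and with at least 100 reads; circles, 5p major; upward triangles, 3p major; the right-pointing triangle is miR-99a, whose minor arm has 0 reads and is drawn against 3. miR-21 lies at 3598 and miR-22 at 7.71.

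miR-21-5p, the guide arm of miR-21, was an abundant and even cargo of the vesicles. It was the entry with rank 7 by total count, held 2.14% of all counts, and its rank within a library ran from 6 to 15. Ranks and shares are over entries, and entries with equal totals, such as miR-148a and miR-148d (353036 counts each), are counted separately. In in vivo female replicates 1 to 3 it stood at 20821, 19675 and 9917 CPM, and in in vivo male replicates 1 to 3 at 33406, 14331 and 25214 CPM. In IVF libraries it ran from 11565 through a median of 23461 to 33971 CPM, and in nuclear transfer libraries from 14444 through 20610.0 to 33346 CPM. The 3 ranges overlap almost wholly, with in vivo female replicate 3 the lowest of all 28 libraries after TMM scaling. By type and sex, the group means fell in the order IVF female (24399 ± 7720 CPM, SD, n = 7), in vivo male (24317 ± 9569, n = 3), nuclear transfer male (22661 ± 6818, n = 7), IVF male (21853 ± 7618, n = 3), nuclear transfer female (20402 ± 3681, n = 5) and in vivo female (16805 ± 5992, n = 3). Each step in this order was smaller than the SD of either neighbour. The order depends on the scaling. Without TMM scaling the type means were 25544 ± 8905 CPM (SD) in vivo, 21677 ± 8270 for IVF and 21018 ± 5459 for nuclear transfer.

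miR-22-3p, the guide arm of miR-22, was less abundant and, after TMM scaling, varied even less. It had rank 63 by total count and 0.103% of all counts. In in vivo female replicates 1 to 3 it stood at 1233, 992 and 1664 CPM, and in in vivo male replicates 1 to 3 at 966, 743 and 890 CPM. In IVF libraries it ran from 843 through a median of 1014 to 1575 CPM, and in nuclear transfer libraries from 673 through 995 to 1815 CPM. The type means were 1081 ± 327 (SD, n = 6) in vivo, 1065 ± 210 (n = 10) for IVF and 1068 ± 358 (n = 12) for nuclear transfer. Without TMM scaling they were less alike, at 1468 ± 798 CPM in vivo, 983 ± 307 for IVF and 1021 ± 278 for nuclear transfer. The entry miR-3600 has the same counts as miR-22-3p in every library, so these reads cannot be assigned to miR-22-3p alone.

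miR-22-5p, the minor arm, was detected in 28 of 28 libraries at 2 to 94 reads. In in vivo female replicates 1 to 3 it stood at 294, 138 and 133 CPM, and in in vivo male replicates 1 to 3 at 64.4, 304 and 151 CPM. In IVF libraries it ran from 25.9 through a median of 93.5 to 226 CPM, and in nuclear transfer libraries from 42.1 through 149 to 235 CPM. The IVF values lie toward the lower end, and the in vivo and IVF ranges still share most of their length.

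miR-21-3p, the minor arm of miR-21, was close to the limit of detection. It had 0 reads in 16 libraries, 1 read in 7 and more than 1 in 5. The highest counts were 5 reads in IVF male replicate 1, 4 in in vivo male replicate 1, and 3 each in nuclear transfer male replicates 1 and 7. Where it had 0 reads, the depth allows a share of miR-21 reads of up to 0.0285% in nuclear transfer female replicate 3 and up to 0.353% in in vivo male replicate 2. Pooled by type it held 6 reads in vivo, 8.12 CPM without TMM scaling (exact 95% Poisson interval 2.98 to 17.7), 8 reads in IVF, 5.93 CPM (2.56 to 11.7), and 10 reads in nuclear transfer, 5.16 CPM (2.47 to 9.49). These intervals overlap, and no difference between types was detectable at this depth.

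**Figure D2:**
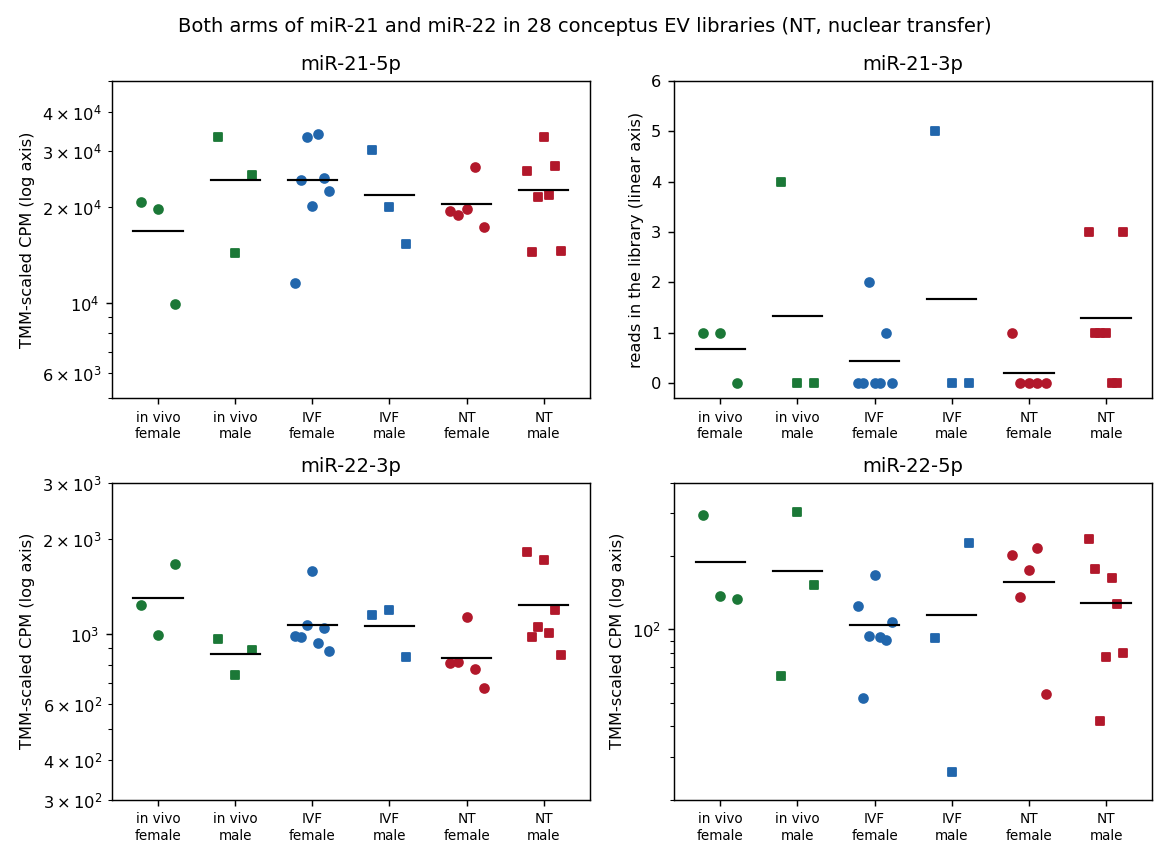
Level of each arm in every EV library by conceptus type and sex (NT, nuclear transfer); the y axes are TMM-scaled CPM on a log axis, except miR-21-3p, which is reads per library on a linear axis, and black lines are group means. miR-21-5p and miR-22-3p keep to narrow bands in all 6 groups, miR-22-5p is wider, and miR-21-3p is at 0 in 16 libraries.

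Both guide arms were among the least variable miRNAs of the data set. The SD of log2 CPM over the 28 libraries was 0.36 for miR-22-3p and 0.46 for miR-21-5p, where the median over the 240 miRNAs tested was 1.17. From the lowest, miR-22-3p with its duplicate entry miR-3600 was at rank 1 and miR-21-5p at rank 3 of 240, followed by let-7i at 0.47 and miR-532 at 0.52. Among the 40 most abundant tested miRNAs miR-21-5p had the smallest SD. Within the 6 groups of type and sex the SD was 0.32 for miR-22-3p (rank 1) and 0.48 for miR-21-5p (rank 4). Counting error alone gives a typical SD of 0.13 for miR-22-3p and 0.03 for miR-21-5p, below the SD observed. miR-22-5p had an SD of 0.74 (rank 30), where counting error alone gives a typical SD of 0.38. The ranks depend on the scaling: over TMM, RLE, upper quartile and total count scaling miR-22-3p held ranks 1 to 6 and miR-21-5p ranks 1 to 3, and with totals that leave out miR-2887 and miR-2904 they were at ranks 10 and 9, with SDs of 0.54 for each. miR-22-3p had the larger SD of these 2 with RLE scaling (0.50 against 0.48) and with total counts (0.49 against 0.47). Under TMM, leaving out each library in turn kept miR-22-3p at rank 1 and miR-21-5p at rank 3 or 4.

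**Figure D3:**
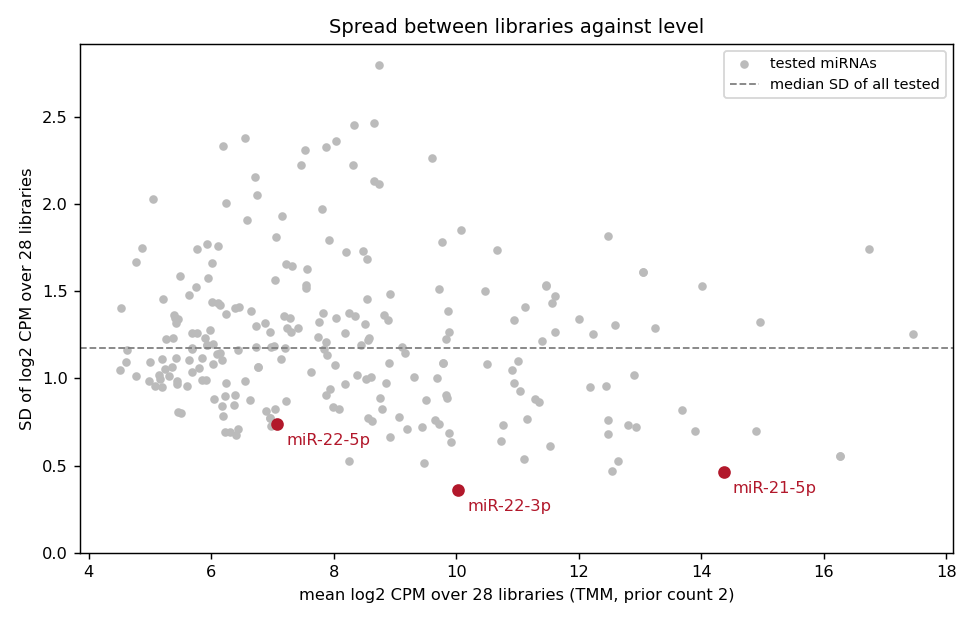
SD of log2 CPM over 28 libraries (y axis) against the mean log2 CPM (x axis) for the 240 tested miRNAs; red points are the members tested and the dashed line is the median SD of 1.17. miR-22-3p and miR-21-5p lie at the lower edge, at 0.36 and 0.46.

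No tested arm of miR-21 or miR-22 was found to differ between conceptus types. With counts tested in edgeR, 3 of the 4 members passed the filter on low counts, and miR-21-3p did not. Between IVF and in vivo EVs, 0 of the 3 passed an adjusted p of 0.05 (background 0% of 240 miRNAs). Between nuclear transfer and in vivo EVs 0 of 3 passed (background 0.417%), and between nuclear transfer and IVF EVs 0 of 3 (background 1.25%). At an unadjusted p under 0.05 edgeR had 0 of 3 in each of these comparisons, DESeq2 had 0 of 3 in each, and limma voom had 1 of 3 for IVF against in vivo (miR-22-5p, log2 difference -1.04, adjusted p = 0.176; background at that unadjusted p 27.1% of 240 miRNAs by limma voom) and 0 of 3 in the others, with 0 past the adjusted threshold by either tool. The background of IVF against in vivo moved with 1 library: without IVF male replicate 3, edgeR called 21 of 254 miRNAs. The comparisons with in vivo share the in vivo libraries.

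For miR-22-3p the intervals leave room for moderate changes. The IVF to in vivo ratio was 1.00-fold (95% interval 0.669 to 1.51; log2 difference 0.01, SE 0.29, adjusted p = 0.998 by edgeR), and the nuclear transfer to in vivo ratio was 0.960-fold (0.655 to 1.41; adjusted p = 0.909 by edgeR). The nuclear transfer to IVF ratio was 0.957-fold (0.678 to 1.35; adjusted p = 0.972 by edgeR). Over the 240 tested miRNAs the median size of the log2 difference between IVF and in vivo was 0.65, and that of miR-22-3p had rank 3 from the smallest.

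For miR-21-5p the IVF to in vivo ratio was 1.14-fold (95% interval 0.743 to 1.76; log2 difference 0.19, SE 0.30, adjusted p = 0.843 by edgeR). The nuclear transfer to in vivo ratio was 1.06-fold (0.710 to 1.59; adjusted p = 0.864 by edgeR) and the nuclear transfer to IVF ratio was 0.931-fold (0.648 to 1.34; adjusted p = 0.956 by edgeR). For miR-22-5p the intervals are wider. Its IVF to in vivo ratio was 0.607-fold (0.304 to 1.21; log2 difference -0.72, SE 0.49, adjusted p = 0.468 by edgeR), its nuclear transfer to in vivo ratio 0.794-fold (0.418 to 1.51; adjusted p = 0.737 by edgeR) and its nuclear transfer to IVF ratio 1.31-fold (0.721 to 2.37; adjusted p = 0.800 by edgeR). Its interval for IVF against in vivo therefore holds ratios from 0.304 to above 1.

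**Figure D4:**
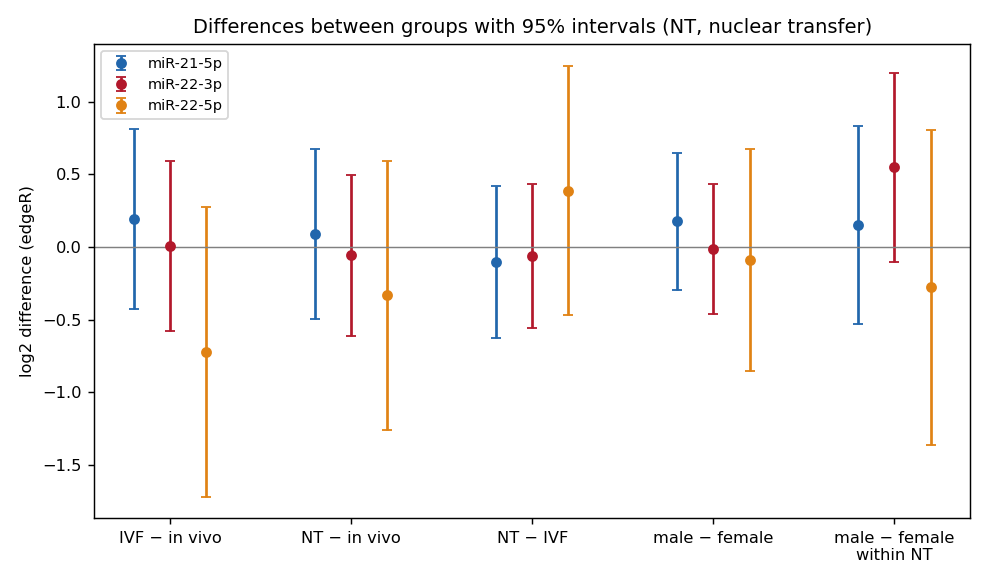
Log2 differences fitted by edgeR (y axis) for the 3 members tested in 5 comparisons (x axis; NT, nuclear transfer); points are estimates and bars 95% intervals. Every interval includes 0, and those of miR-22-5p are the widest.

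The ratio of the arms was tested per library as log2 of 5p over 3p, with 0.5 added to each count. The 12 tests, 3 ratios by 3 type comparisons and sex, had adjusted p-values of 0.831 to 0.995 by permutation over libraries. They compare plain means over libraries, so type differences in the ratios are not balanced for sex, nor sex differences for type. In miR-22 the share of the 5p arm in in vivo female replicates 1 to 3 was 19.3, 12.2 and 7.41%, and in in vivo male replicates 1 to 3 it was 6.25, 29.0 and 14.6%. In IVF libraries it ran from 2.13 through a median of 8.57 to 21.1%, and in nuclear transfer libraries from 3.85 through 12.5 to 21.8%. The lowest share, that of IVF male replicate 2, rests on 94 reads (exact 95% interval 0.259 to 7.48%), and the highest, that of in vivo male replicate 2, on 62 reads (18.2 to 41.9%).

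Pooled over libraries, 5p made up 13.9% of miR-22 reads in vivo (exact 95% interval 11.8 to 16.2%), 9.13% in IVF (7.68 to 10.8%) and 11.9% in nuclear transfer (10.6 to 13.3%). The in vivo and IVF intervals do not overlap, but they hold counting error alone. Over libraries the mean log2 ratio of 5p to 3p was -2.67 ± 0.95 (SD, n = 6) in vivo and -3.41 ± 0.86 (n = 10) in IVF, and the difference of -0.74 (SE 0.47) was smaller than either SD (exact permutation test, two-sided, p = 0.132, adjusted p = 0.831). Nuclear transfer stood at -2.99 ± 0.84 (n = 12), which differed by -0.32 (SE 0.46) from in vivo (exact permutation test, p = 0.475, adjusted p = 0.831) and by 0.42 (SE 0.36) from IVF (permutation test, p = 0.261, adjusted p = 0.831).

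**Figure D5:**
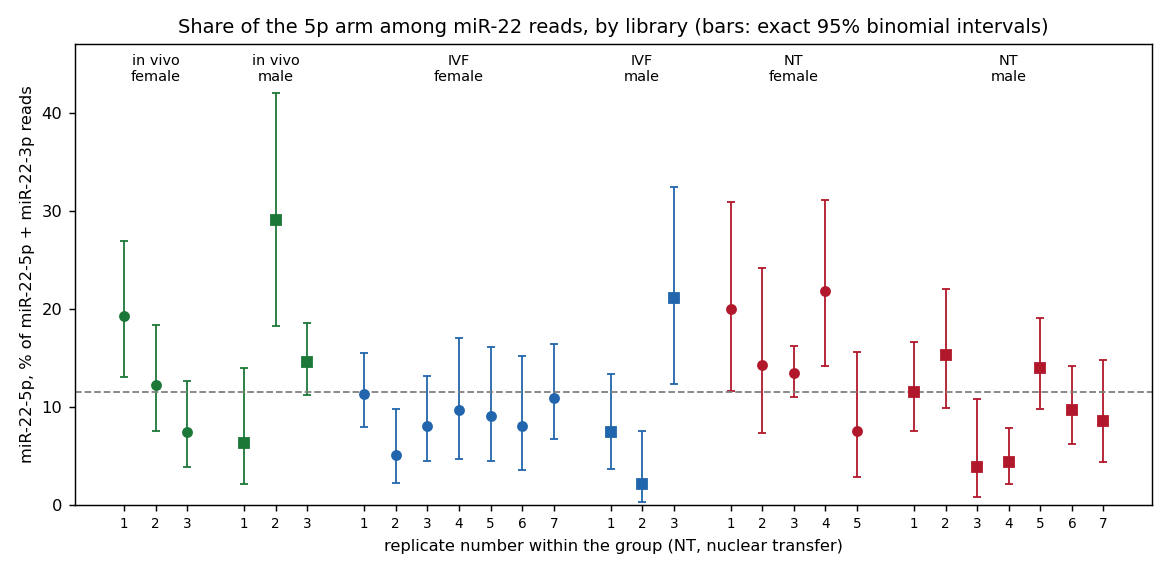
Share of the 5p arm among miR-22 reads (y axis, %) in each library, by conceptus type and sex (NT, nuclear transfer); bars are exact 95% binomial intervals and the dashed line is the pooled share of 11.5%. Shares run from 2.13% in IVF male replicate 2 to 29.0% in in vivo male replicate 2, and the types overlap.

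The miR-21 arm ratio was 10.99 ± 1.67 (log2, n = 6) in vivo, 11.57 ± 1.23 (n = 10) in IVF and 11.42 ± 1.65 (n = 12) in nuclear transfer. With 0 to 5 reads of 3p per library this ratio follows the depth of 5p and the added 0.5, and its largest type difference was 0.58 (SE 0.79; exact permutation test, p = 0.447, adjusted p = 0.831), between IVF and in vivo. Without in vivo male replicate 1 that difference was 0.22, and without in vivo male replicate 3 it was 1.22.

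The ratio of the guide arms to each other, reads of miR-21-5p per read of miR-22-3p, was 21.7 ± 7.20 (SD) over the 28 libraries. In in vivo female replicates 1 to 3 it was 16.9, 19.8 and 5.96, and in in vivo male replicates 1 to 3 it was 34.6, 19.3 and 28.3. In IVF libraries it ran from 11.7 through a median of 24.3 to 36.4, and in nuclear transfer libraries from 14.3 through 21.1 to 34.5. In vivo female replicate 3 stands below the other 27 libraries. After TMM scaling it had the lowest miR-21-5p and the highest in vivo miR-22-3p level, and its TMM factor of 1.83 was the largest. Without TMM scaling its miR-22-3p, at 3050 CPM, was the highest of all libraries. Its miR-21-5p, at 18178 CPM, was then above the lowest, 9939 CPM in IVF female replicate 4. On the log2 scale the SD was 0.88 in vivo (n = 6), 0.53 in IVF (n = 10) and 0.36 in nuclear transfer (n = 12), and the 3 type differences were between -0.06 and 0.23 (adjusted p = 0.831 to 0.882, permutation tests).

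Conceptus sex also gave 0 of 3 members past the adjusted threshold over the 3 types (edgeR; background 0%; 0 of 3 at an unadjusted p under 0.05 by edgeR, DESeq2 and limma voom). The male to female ratio was 1.13-fold for miR-21-5p (95% interval 0.816 to 1.56; adjusted p = 0.824 by edgeR), 0.991-fold for miR-22-3p (0.727 to 1.35; adjusted p = 0.990 by edgeR) and 0.939-fold for miR-22-5p (0.553 to 1.59; adjusted p = 0.979 by edgeR). The type by sex interaction had 0 of 3 past the threshold (background 0%; 0 of 3 at an unadjusted p under 0.05 by edgeR, 1 of 3 by DESeq2, whose background at that p was 19.8%, and 0 of 3 by limma voom), the smallest adjusted p being 0.454 for miR-22-3p by edgeR. miR-21-3p held 18 reads in 7 of 13 male libraries, 10.1 CPM without TMM scaling (exact 95% Poisson interval 5.98 to 15.9), and 6 reads in 5 of 15 female libraries, 2.68 CPM (0.982 to 5.83). These intervals cover counting error alone. With the filter on low counts removed, its male to female log2 difference was 1.88 (SE 0.86, unadjusted p = 0.0312, adjusted p = 1.00 by edgeR over 655 miRNAs), and the difference in the miR-21 arm ratio was -0.76 (SE 0.56; permutation test, p = 0.184, adjusted p = 0.831).

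Within nuclear transfer conceptuses, miR-22-3p was at 808, 815, 1132, 777 and 673 CPM in female replicates 1 to 5. In the 7 males it ran from 858 through a median of 1052 to 1815 CPM. Of the 5 females 4 lie below every male, and female replicate 3 lies within the male range. The male to female ratio was 1.46-fold (95% interval 0.930 to 2.29; log2 difference 0.55, SE 0.32, adjusted p = 0.219 by edgeR), so that 0 of 3 members passed by edgeR, where the background was 8.33% of 240 miRNAs and 0 of 3 had an unadjusted p under 0.05 (0.0968 for miR-22-3p by edgeR). The values of miR-21-5p and miR-22-5p were 1.11-fold (0.694 to 1.78) and 0.824-fold (0.389 to 1.75), with adjusted p = 0.777 and 0.737 by edgeR, and that of miR-22-5p was above 1 with DESeq2 or RLE scaling. With 1 library left out edgeR's calls over all miRNAs in this comparison ran from 0 to 36 (36 without nuclear transfer male replicate 7), with 0 members among them. DESeq2 gave a log2 difference of 0.92 and passed miR-22-3p alone among the 3 (adjusted p = 0.0170), where DESeq2 passed 24.9% of the 237 miRNAs it gave a p for, and limma voom gave 0.57 (adjusted p = 0.106). At an unadjusted p under 0.05 DESeq2 had 1 of 3, with 88 of 237 over all miRNAs. Limma voom also had 1 of 3 at that p, and it passed 46 of 240 miRNAs at the adjusted threshold. With DESeq2 the median of all miRNAs in this comparison stood 0.38 higher, and relative to the median miRNA the difference was 0.58 by edgeR and 0.57 by DESeq2. With RLE scaling in edgeR the median stood 0.39 higher, and miR-22-3p had a log2 difference of 0.92 (adjusted p = 0.0862 by edgeR). Why DESeq2 alone called miR-22-3p was not tested. Since the source of the transferred nuclei is not given, conceptus sex and that source cannot be told apart.

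Ratios within the nuclear transfer libraries, compared after the levels had been seen, need no scaling. The log2 ratio of miR-21-5p to miR-22-3p was 4.19 ± 0.27 (SD, n = 7) in males and 4.60 ± 0.35 (n = 5) in females, 0.756-fold in males (exact permutation test, two-sided, p = 0.0480, adjusted p = 0.136 over 3 ratios), with 7 of 7 males below the female median. Without nuclear transfer female replicate 3 the adjusted p was 0.0182, and over all libraries left out in turn it ran up to 0.173 (exact permutation tests). The log2 ratio of 5p to 3p in miR-22 was -3.34 ± 0.80 in males and -2.50 ± 0.67 in females (exact permutation test, p = 0.0909, adjusted p = 0.136), and in miR-21 it was 10.98 ± 1.66 and 12.03 ± 1.61 (exact permutation test, p = 0.295, adjusted p = 0.295). None of the 3 passed the adjusted threshold.

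No correlation was detected between the arms of miR-22 across libraries. Over the 28 libraries, Pearson's r between log2 CPM of miR-22-3p and miR-22-5p was -0.0020 (permutation p = 0.992, adjusted p = 0.992) and Spearman's rho was -0.09 (permutation p = 0.661, adjusted p = 0.661). Leaving out the 2 libraries farthest in miR-22-3p gave r = -0.06, and within types r was -0.15 in vivo, -0.12 in IVF and 0.13 in nuclear transfer. The small spread of miR-22-3p and the counting error of miR-22-5p limit what such a correlation can show. Between the guide arms, miR-21-5p and miR-22-3p, r was 0.14 (permutation p = 0.491, adjusted p = 0.614) and rho 0.26 (permutation p = 0.181, adjusted p = 0.226). Without the 2 libraries farthest in miR-21-5p r was 0.40, and within types it was -0.47 in vivo, 0.09 in IVF and 0.62 in nuclear transfer, so the types differ in the sign of r, a difference that was not tested.

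The share of miR-2887 and miR-2904, which differs between libraries and types, was compared with the members in the same way (5 correlations in all). With the logit of that share, miR-22-3p had r = 0.39 (permutation p = 0.0416, adjusted p = 0.208) and rho = 0.45 (permutation p = 0.0174, adjusted p = 0.0870), miR-21-5p had r = 0.33 (permutation p = 0.0864, adjusted p = 0.216) and rho = 0.38 (permutation p = 0.0456, adjusted p = 0.114), and miR-22-5p had r = -0.28 (permutation p = 0.148, adjusted p = 0.247) and rho = -0.28 (permutation p = 0.147, adjusted p = 0.226). Without the 2 libraries farthest in that share r was 0.45, 0.45 and -0.24. Within types r for miR-22-3p was 0.12 in vivo, 0.72 in IVF and 0.41 in nuclear transfer. None passed the adjusted threshold.

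The miRNAs whose levels most resembled each guide arm over the 28 libraries were chosen by Spearman's rho of log2 CPM among the 239 other tested miRNAs, as a description. For miR-21-5p they were miR-16a (rho = 0.66), miR-302c (0.66), miR-148b (0.64), miR-11986b (0.62) and miR-374b (0.61), with miR-22-3p at rank 76 and miR-22-5p at rank 206. For miR-22-3p they were its duplicate miR-3600, then miR-365-3p (0.61), miR-302d (0.61), miR-9-3p (0.61) and miR-660 (0.60), with miR-21-5p at rank 66 and its own partner miR-22-5p at rank 139. All points share their libraries and scaling factors.

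Of 11 miRNAs commonly reported as induced by NF-kB or STAT3, signalling factors also known to induce miR-21, 8 were listed under the names used and 6 were tested. By edgeR 0 of 6 passed the threshold between types. The background was 0% of 240 miRNAs for IVF against in vivo, 0.417% for nuclear transfer against in vivo and 1.25% for nuclear transfer against IVF, so 0 of 6 is near that share. Their median log2 difference was -0.27 for IVF against in vivo (3 of 6 positive, range -0.71 to 1.24, median 0.01 over all 240). It was -0.72 for nuclear transfer against in vivo (2 of 6 positive, range -3.04 to 1.66, median 0.15 over all). For nuclear transfer against IVF it was -0.27 (2 of 6 positive, range -2.48 to 0.41, median 0.06 over all).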

How the data were processed

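The values are counts of reads per miRNA entry that the authors deposited without normalization. Per the labels' protocols, EV RNA was extracted on columns with DNase treatment, its short fraction was kept and adapter-ligated libraries were selected for 18 to 40 bp. Per the submitters' processing notes, reads were placed on ARS-UCD1.2, and Bowtie, STAR, cutadapt, DESeq2 and featureCounts are named without role or version. How reads matching several entries were counted is not stated. The endometrial table was not used.

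Groups came from the sample titles. All 28 libraries entered 1 edgeR 4.0.16 fit (R 4.3.3) of 6 group means, with TMM scaling, a filterByExpr minimum count of 10 and total of 15, the quasi-likelihood F test, two-sided, and Benjamini-Hochberg adjustment over 240 miRNAs at 0.05. In the edgeR fit, type contrasts average the differences within females and within males. The arm ratio tests instead compare the plain means of the libraries in each group, without balancing sex or type. No 2 libraries had identical values. Levels for correlations are log2 CPM with a prior count of 2. Arm ratios used 0.5 added to each count and permutation tests in scipy 1.17.1, exact where a group had fewer than 10 libraries and otherwise with 100000 resamples. Binomial and Poisson intervals are exact at 95%, and the limit of a count of 0 is 3 counts. The 95% intervals of edgeR ratios are not exact: they are t intervals around the log2 difference, with the SE taken from the F statistic. The edgeR script was tested on simulated data for IVF against in vivo with 240 miRNAs. Of those that passed the filter on low counts, 20 of 30 changed 4-fold and 26 of 27 changed 16-fold were called, and 3 of 167 unchanged ones. Simulated miRNAs that the filter dropped, some of them changed, are not in these counts.

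The named miRNAs are the 4 members, the 5 most alike by Spearman's rho, the neighbours in arm inequality and list members past the threshold; the miRNAs with the smallest spread were named after their values were seen. The result of 1 other list is not reported here. Members, lists and tests were chosen with earlier results of these data known. Alternatives were DESeq2 1.42.0, limma voom 3.58.1 with quality weights, other scalings and filters, miR-2887 and miR-2904 left out or as a covariate, a replicate block, other ratio settings and leaving out each library.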

Additional observations from a re-analysis of the deposited data

Results flagged for a closer look

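Of 25 combinations of a quantity and a group of 5 to 10 libraries, 4 held a library farther from its neighbours than Dixon's 95% limit, which chance exceeds in about 1 of 20 groups. miR-22-3p stood at 1575 CPM in IVF female replicate 4, above the next IVF library at 1192 and the next IVF female at 1070, which flagged it in both groupings. miR-21-5p stood at 26780 CPM in nuclear transfer female replicate 4, where the next female had 19680. The log2 ratio of miR-22 5p to 3p was -4.15 in IVF female replicate 2, where the next IVF female had -3.47, the lower value resting on 8 reads of 5p.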

How the results depend on the processing

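The number of members past the adjusted threshold was 0 in each of the 6 comparisons under edgeR, limma voom, every scaling and filter tried, the replicate block and each of the 28 libraries left out. The exception was DESeq2 within nuclear transfer, which called 1 member, miR-22-3p, between the sexes (log2 difference 0.92). The replicate numbers gave no sign of pairing libraries of different groups. The median correlation of deviations from the group means was 0.0074 over 53 same-numbered pairs and 0.0021 over 264 other pairs. The replicate block gave 0 member calls. Over all miRNAs it gave 6 calls for nuclear transfer against in vivo (1 without it) and 15 between the sexes within nuclear transfer (20 without it). In the latter comparison DESeq2 called 59 and limma voom 46, RLE and upper quartile scaling 3 each, and the CPM filter and the covariate 0; for IVF against in vivo, DESeq2 called 13 and limma voom 22, where edgeR called 0, and 6 of 655 with no filter. With 1 library left out, edgeR's calls over all miRNAs ran from 0 to 21 for IVF against in vivo, from 0 to 5 for nuclear transfer against in vivo, from 0 to 4 for nuclear transfer against IVF and from 0 to 36 between the sexes within nuclear transfer. Differences near 0 changed sign without being called. For miR-21-5p between nuclear transfer and in vivo the value was -0.021 with the filter of 10 CPM in 3 libraries, -0.00033 with the share of miR-2887 and miR-2904 as a covariate and -0.0037 with the replicate block. Between the sexes within nuclear transfer it was -0.039 with that covariate. miR-22-5p between the sexes was 0.090 by DESeq2, 0.10 with RLE factors and 0.049 with upper quartile scaling, and within nuclear transfer 0.096 by DESeq2 and 0.091 with RLE. miR-22-3p between IVF and in vivo was -0.014 with upper quartile scaling, -0.12 with the CPM filter, -0.067 without miR-2887 and miR-2904 and -0.10 with their share as a covariate. Between nuclear transfer and in vivo it was 0.072 with no filter, and between nuclear transfer and IVF 0.040 with no filter and 0.023 without miR-2887 and miR-2904. Between the sexes it was 0.13 by DESeq2, 0.065 by limma voom, 0.13 with RLE, 0.068 with upper quartile scaling and 0.047 with no filter. The ratios were also compared with differences averaged within females and within males, and permuted within sex. The nuclear transfer to IVF difference was then 0.21 in the miR-21 arm ratio, against -0.16 between plain means. In the ratio of guide arms it was 0.0069, against -0.056 between plain means. The SD of miR-22-3p over libraries rose to 0.54 with totals that leave out miR-2887 and miR-2904. The cause of these changes was not tested.

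With 1 library left out, miR-21-5p ran from -0.035 to 0.32 for IVF against in vivo, from -0.12 to 0.18 for nuclear transfer against in vivo, from -0.27 to 0.0068 for nuclear transfer against IVF and from -0.035 to 0.32 between the sexes within nuclear transfer. miR-22-5p ran from -0.35 to 0.14 between the sexes. miR-22-3p ran from -0.21 to 0.16 for IVF against in vivo, from -0.32 to 0.014 for nuclear transfer against in vivo and from -0.079 to 0.11 between the sexes. The log2 ratio of miR-21-5p to miR-22-3p ran from -0.094 to 0.41, from -0.15 to 0.36 and from -0.15 to 0.029 for the type comparisons in that order and from -0.13 to 0.060 between the sexes, and the miR-21 arm ratio from 0.22 to 1.22, from 0.059 to 1.06 and from -0.43 to 0.047 for the type comparisons in that order. Depth limits miR-21-3p (24 reads) most and miR-22-5p (538 reads) next.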
